A study of Mus musculus with 42 samples.

Results

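The sirtuins are deacetylases and related enzymes that use NAD+ as a co-substrate, and the mRNA of 5 of them was followed here through the 2-cell and 4-cell stages of mouse embryos: Sirt1, Sirt2, Sirt3, Sirt4 and Sirt6. They were chosen by their symbols among the 15737 genes of the expression table whose symbol is listed once. Sirt5 and Sirt7 were not analysed here. Embryos came from ICR mice, and RNA was taken as pools of 3 embryos. Early 2-cell embryos were collected 34 h after human chorionic gonadotropin (hCG), the hormone that triggers ovulation, and are labelled WT and untreated. Late 2-cell embryos were collected at 48 h as WT, untreated controls, after FK866 at 0.01 µM, after FK866 with NMN at 10 µM, after TSA at 10 nM, or after depletion of Sirt1. The 4-cell embryos were collected at 58 h as WT, untreated controls, after FK866, or after FK866 with NMN. Although the labels call the controls untreated, the methods of the study give DMSO, the solvent of FK866 and TSA, as the control for the drugs. For Sirt1 depletion, zygotes were injected with a mixture of small interfering RNA, Trim21 mRNA and an antibody against SIRT1, in which TRIM21 takes the antibody-bound protein to the proteasome, and the negative control was injected with scrambled small interfering RNA and Trim21 mRNA. No separate column of injected controls was used here, so the Sirt1 comparison was made with the late 2-cell control column. The 24 samples of histone H3 lysine 27 acetylation were not analysed here.

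Sirtuins remove acetyl or longer acyl groups from lysines and split NAD+ in each reaction, so their activity depends on the NAD+ pool. SIRT1 and SIRT6 are nuclear and act on histones and transcription factors, SIRT2 is mainly cytoplasmic, and SIRT3 and SIRT4 are mitochondrial. FK866 blocks NAMPT, which turns nicotinamide into NMN in the salvage route to NAD+, and NMN given in the medium enters the route after that step. TSA (trichostatin A) inhibits the zinc-dependent deacetylases and leaves sirtuins uninhibited. In the mouse, transcription of the embryonic genome starts before the late 2-cell stage with a minor wave, and a major wave follows in the course of that stage.

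RNA-seq values were FPKM, fragments per kilobase of exon scaled to the mapped reads of the library, with 1 deposited column for each of 9 groups. Values of a column fell on the steps of whole reads, which gave back the libraries added in it. Of the 9 columns, 7 held 2 libraries, and the last columns, 4-cell FK866 and 4-cell FK866-NMN by header, held 1 each. The 16 libraries had between 3169677 and 10003481 reads. The library of a column with more reads is called A and the other B, and neither carries a replicate number. All 5 sirtuins could be separated into whole reads in every column. For 5 columns the header and the supplementary tables of the study name different groups. For the 4-cell control group, 83 of 83 listed values were equal to the column headed late 2-cell TSA. For the 4-cell FK866 group, 83 of 83 were equal to the column headed late 2-cell Sirt1, and for 4-cell FK866 with NMN, 83 of 83 to the column headed 4-cell control. The late 2-cell control, FK866 and FK866 with NMN groups matched the columns of the same header at 117, 118 and 117 of 118 listed values. For late 2-cell TSA and Sirt1 depletion the tables list directions of change. The direction was that of the column headed 4-cell FK866 over late 2-cell control for 1201 of 1201 genes listed for TSA, and that of the column headed 4-cell FK866-NMN for 772 of 820 genes listed for Sirt1 depletion, against at most 1095 and 702 for any other column. Sirtuins were left out of these matches. The early 2-cell column was not matched. Each comparison is given first by the headers and then by the tables.

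Markers of the 2-cell stage were lowest in sum in the columns that the tables give to 4-cell embryos. The summed level of 5 genes of the 2-cell stage (Zscan4c, Zscan4d, Zfp352, Usp17lc and Tdpoz4) was 13.5, 19.3 and 32.3 FPKM per library in the columns headed late 2-cell TSA, late 2-cell Sirt1 and 4-cell control. In the other 6 columns it was between 103 and 296 FPKM. Of the 5 genes, 4 were lower in each of those 3 columns than in any other. Tdpoz4 was not, at 5.49 to 8.75 FPKM there against 1.18 in early 2-cell and 2.77 in late 2-cell FK866-NMN. Nanog, a pluripotency factor of later cleavage, had 3.01 to 5.15 FPKM in those 3 columns, 11.3 FPKM in late 2-cell FK866-NMN and at most 0.107 FPKM in the other 5. Cdx2, a later trophectoderm factor, was 0.140 FPKM under the late 2-cell Sirt1 header, 0.524 in 4-cell control and 0 in the other 7 columns. The oocyte markers Zp3 and Mos summed to between 15.6 and 63.8 FPKM, and Zp3 was present in every column. Of 2 cumulus or granulosa cell markers in the table, Foxl2 was at or near 0 throughout, and Cyp19a1 reached 8.12 FPKM in the column headed 4-cell FK866. The red blood cell markers Hbb-bs and Hbb-bt summed to at most 1.10 FPKM. The part of these markers in the sirtuin results was not tested.

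Sirt1, the gene targeted by the depletion, lies on chromosome 10 at chr10:63319005-63381704 on the minus strand of GRCm38, with 5331 bases of exon. The 2 libraries headed late 2-cell Sirt1 had 32.4 and 73.1 FPKM of Sirt1, from 1726 and 1235 reads. The late 2-cell control libraries had 86.6 and 66.2 FPKM. Library A lay below both control libraries and library B within their range, so the ranges of the 2 columns overlapped. The column headed 4-cell FK866-NMN, which the tables give to Sirt1 depletion, had 11.3 FPKM from 415 reads in its 1 library. A low level was not particular to that column, since the column headed 4-cell FK866, which the tables give to TSA, had 7.61 FPKM from 190 reads. Depletion also acts on the SIRT1 protein through the antibody, which RNA-seq does not measure.

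The upstream sequences of Sirt1 and Sirt4, the members with the largest differences between columns, are shown for comparison of their base composition. They are the 250 bases before the start in RefSeq on GRCm38.p6, both on the minus strand, at chr10:63339036-63339285 for Sirt1 and chr5:115484298-115484547 for Sirt4. Both windows lie inside the gene spans printed in this report, so the RefSeq start is not the outermost start of those spans. Capitals mark GGGCGG, the GC box bound by Sp1, and CACGTG, an E-box, on either strand.
Sirt1: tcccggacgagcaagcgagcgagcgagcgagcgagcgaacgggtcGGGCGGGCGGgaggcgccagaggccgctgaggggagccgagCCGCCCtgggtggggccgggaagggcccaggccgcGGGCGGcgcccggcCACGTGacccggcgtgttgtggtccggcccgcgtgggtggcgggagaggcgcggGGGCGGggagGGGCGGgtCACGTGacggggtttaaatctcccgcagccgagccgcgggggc
Sirt4: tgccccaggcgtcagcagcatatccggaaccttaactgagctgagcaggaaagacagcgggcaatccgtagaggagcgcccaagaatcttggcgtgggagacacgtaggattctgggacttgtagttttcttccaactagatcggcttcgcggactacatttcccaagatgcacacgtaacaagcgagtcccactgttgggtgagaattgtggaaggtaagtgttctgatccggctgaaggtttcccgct
The Sirt1 window held 6 GC boxes, of which 2 overlap, and 2 E-boxes, with 79.2% G and C and 39 CpG dinucleotides. The Sirt4 window held neither motif, with 53.2% G and C and 14 CpG. Among 32536 windows of the same kind, 33.0% held a GC box, 6.04% held an E-box, 12.3% held TATAAA, which neither gene had, and the median was 6 CpG. Windows were found for all 5 members. Those of Sirt2, Sirt3 and Sirt6 had between 13 and 21 CpG and no E-box. Sirt2 had 1 GC box, and of the 2 windows each of Sirt3 and Sirt6, 1 window of Sirt3 held 3, 1 of Sirt6 held 1 and the others held none.

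Sirt1 fell into a high and a low range. In the 12 libraries of the columns headed late 2-cell control, FK866, FK866-NMN, TSA and Sirt1 and 4-cell control, it lay between 32.4 and 92.3 FPKM. In the 4 libraries of the columns headed early 2-cell, 4-cell FK866 and 4-cell FK866-NMN, it lay between 6.18 and 13.5 FPKM. The sets were formed by the Sirt1 level itself, so the 2.40-fold gap between them is a description.

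By library, Sirt1 was 13.5 and 6.18 FPKM in early 2-cell embryos (406 and 153 reads), 86.6 and 66.2 in late 2-cell controls, 79.3 and 55.1 with FK866, and 92.3 and 53.3 with FK866-NMN. It was 65.8 and 73.4 FPKM in the column under the late 2-cell TSA header and 77.3 and 66.8 in the column headed 4-cell control. The order of mean levels per library was late 2-cell control (76.4 FPKM), late 2-cell FK866-NMN (72.8), 4-cell control (72.0), late 2-cell TSA (69.6), late 2-cell FK866 (67.2), late 2-cell Sirt1 (52.7), 4-cell FK866-NMN (11.3), early 2-cell (9.84) and 4-cell FK866 (7.61), by the headers. Neighbours among the first 6 overlapped in their libraries, and the early 2-cell libraries spanned both of the lone libraries beside them. Only the step from 52.7 to 11.3 FPKM separated neighbouring columns without overlap.

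**Figure D1:**
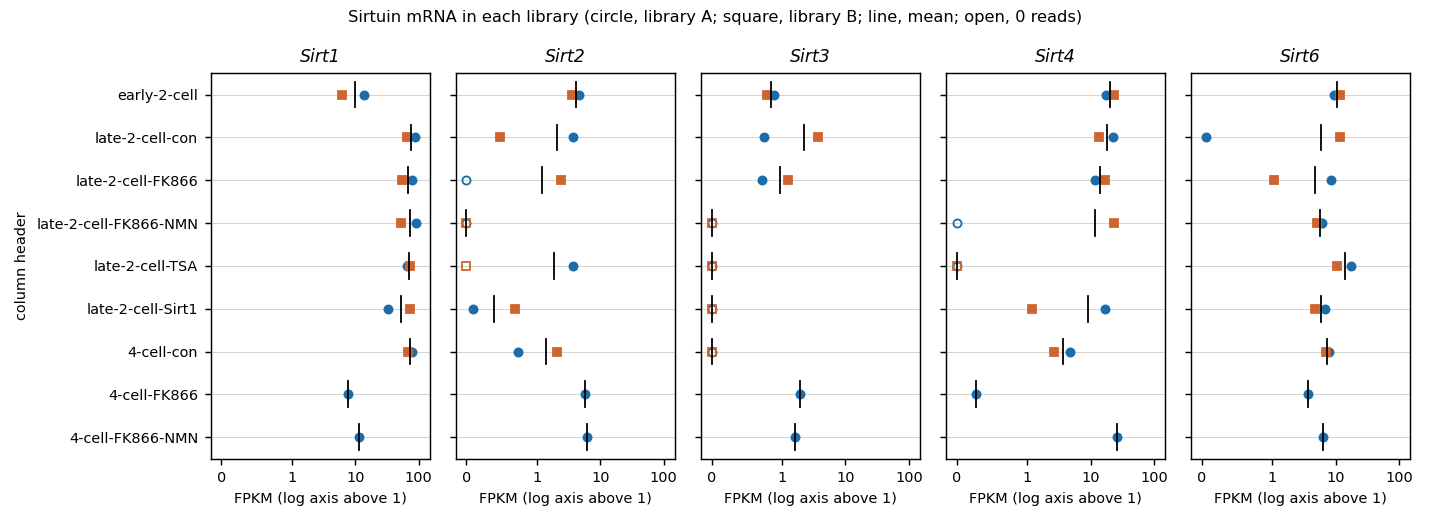
FPKM of each sirtuin (x axis, linear below 1 and logarithmic above) in each library, by column header (y axis), with circles for library A, squares for library B, open symbols for 0 reads and a line at the mean. Sirt1 sat at 6.18 to 13.5 FPKM in early 2-cell, 4-cell FK866 and 4-cell FK866-NMN and at 32.4 FPKM or more elsewhere, while Sirt2, Sirt3, Sirt4 and Sirt6 reached 0 or near 0 in at least 1 library.

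The other 4 sirtuins were lower, and their libraries differed more. Per exon length, Sirt1 was the highest of the 5 in 13 of 16 libraries and Sirt4 in the other 3, which were both early 2-cell libraries and that of the column headed 4-cell FK866-NMN. In the 12 libraries of the high range, Sirt1 made up 57.3% to 93.7% of the summed FPKM of the 5 members and was 1.89 to 15.4 times the next member. In the other 4 libraries its share was 13.6% to 39.8%. Because the sets were formed by the Sirt1 level, this contrast in share is a description. Among genes above 0 in the column, Sirt1 lay above 93.8% of them in late 2-cell controls, above 75.9% in early 2-cell embryos and above 56.2% in the column headed 4-cell FK866.

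Sirt2, the cytoplasmic deacetylase known for acting on tubulin, lies at chr7:28766735-28788661 on the plus strand, with 5035 bases of exon. It had 4.65 and 3.59 FPKM in early 2-cell embryos (132 and 84 reads) and 3.71 and 0.477 FPKM in late 2-cell controls (122 and 10 reads). With FK866 it had 0 reads in library A and 2.42 FPKM in library B. With FK866-NMN it had 0 reads in both libraries, which allows up to 0.0704 and 0.111 FPKM at 3 reads each. The column headed late 2-cell TSA had 3.74 and 0 FPKM, the column headed late 2-cell Sirt1 0.0993 and 0.689, and the column headed 4-cell control 0.725 and 2.10. The highest values were 5.73 and 6.21 FPKM, in the last columns, 4-cell FK866 and 4-cell FK866-NMN by header. Thus early 2-cell and the last 2 columns were at 3.59 FPKM or more in all their libraries, and each of the other columns had a library under 1 FPKM.

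Sirt3, the main deacetylase of the mitochondrial matrix, lies at chr7:140863666-140882309 on the minus strand. Of its 5973 exon bases, 12.7% overlap exons of Psmd13 and Ric8a on the plus strand, and counting by strand is not given in the sources used here, so reads from these genes may be among its low counts. It was the lowest member, with 0 reads in 8 of 16 libraries. These were both libraries of late 2-cell FK866-NMN and all those under the headers late 2-cell TSA, late 2-cell Sirt1 and 4-cell control, where 3 reads would be 0.0502 to 0.158 FPKM. It had 0.891 and 0.793 FPKM in early 2-cell embryos, 0.744 and 3.74 in late 2-cell controls, 0.710 and 1.24 with FK866, and 1.89 and 1.62 FPKM in the last columns, 4-cell FK866 and 4-cell FK866-NMN by header. By the tables, all 3 columns of 4-cell embryos were at 0, and of the late 2-cell columns FK866-NMN alone.

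Sirt4, a mitochondrial sirtuin known as an ADP-ribosyltransferase and lipoamidase, lies at chr5:115478010-115484725 on the minus strand, with 2398 bases of exon. It had 17.5 and 23.1 FPKM in early 2-cell embryos, 22.5 and 13.8 in late 2-cell controls and 11.9 and 16.8 with FK866. In late 2-cell FK866-NMN, library A had 0 reads, while library B had 23.5 FPKM from 301 reads. The 2 libraries headed late 2-cell TSA had 0 reads. The column headed late 2-cell Sirt1 had 17.1 FPKM in library A and 1.18 in library B, from 411 and 9 reads. The column headed 4-cell control had 4.72 and 2.60 FPKM. The column headed 4-cell FK866 had 0.267 FPKM from 3 reads, and the column headed 4-cell FK866-NMN had the highest value, 26.3 FPKM from 436 reads. By the tables, the 10 libraries of 2-cell columns lay between 0 and 26.3 FPKM and the 6 libraries of 4-cell columns between 0 and 17.1 FPKM, so the stages overlapped.

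Sirt6, a nuclear deacetylase of histone H3, lies at chr10:81621785-81627797 on the minus strand, with 2785 bases of exon. It was detected in all 16 libraries, from 0.0550 to 17.3 FPKM. It had 9.30 and 11.8 FPKM in early 2-cell embryos. The late 2-cell control libraries were far apart, with 0.0550 FPKM from 1 read in library A and 11.9 FPKM from 138 reads in library B. With FK866 it had 8.41 and 1.06 FPKM, and with FK866-NMN 6.19 and 5.17. The column headed late 2-cell TSA had the highest values, 17.3 and 10.4 FPKM, and the columns headed late 2-cell Sirt1 and 4-cell control had 6.89 and 4.76, and 7.74 and 7.04 FPKM. The libraries under the 4-cell FK866 and 4-cell FK866-NMN headers had 3.60 and 6.39 FPKM. Means of the other columns ran from 3.60 to 13.8 FPKM, all above late 2-cell control library A and all but that headed late 2-cell TSA below library B.

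For Sirt6 in the late 2-cell control libraries, intervals for the counting of reads did not overlap, and the cause of this gap was not tested. The exact 95% Poisson interval of Sirt6 in late 2-cell control library A ran from 0.00139 to 0.307 FPKM and that of library B from 10.0 to 14.1 FPKM. Where a gene had at least 1 FPKM per library, 1 of the 2 libraries was at 0 in 15.7% of the 46601 cases over all genes and 7 columns, and the libraries differed by more than 2-fold in 46.2%. For Sirt1 they differed by more than 2-fold in 2 of 7 columns, for Sirt2 in 4 of 5, for Sirt4 in 2 of 6 and for Sirt6 in 2 of 7. Such intervals cover counting error only, since amplified reads without molecular identifiers are not independent molecules, and fewer cells and less mRNA per cell cannot be told apart in pooled embryos.

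Differences between columns were tested with limma on log2(FPKM + 1) of the 16 libraries, across all genes at 1 FPKM or more per library in either column, and called at a Benjamini-Hochberg adjusted p under 0.05. Since 2 columns have 1 library, their libraries were taken to vary like those of the other columns, and every p measures only the spread between libraries. A log2 fold change on this scale understates the change of low genes.

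From early to late 2-cell, 1 of 5 sirtuins was called, against 20.9% of 8898 genes tested. Sirt1 rose from 9.84 to 76.4 FPKM per library, 7.76-fold, with a log2 fold change of 2.91 (95% interval 1.79 to 4.03, limma adjusted p = 0.00285). Both late libraries lay above both early ones, and the libraries of 64.6% of all genes tested did not overlap in either direction. Its difference was above that of 93.2% of genes tested, and over all alternatives the adjusted p lay between 0.00197 and 0.0307. The log2 fold changes of the others were -0.95 for Sirt2, 0.64 for Sirt3, -0.18 for Sirt4 and -1.64 for Sirt6, with adjusted p between 0.270 and 0.926. Without late 2-cell control library A, Sirt3 was called higher at 1.36, and without library B, Sirt6 was called lower at -3.44, so the late 2-cell control libraries decided these values.

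Late 2-cell embryos with FK866 had no sirtuin called out of 5. In this comparison 0.118% of 8443 genes (10 genes) were called, with 866 genes at an unadjusted p under 0.05, of which none was a sirtuin. The Sirt1 log2 fold change was -0.19 (95% interval -1.33 to 0.95, limma adjusted p = 0.907), and the interval leaves room for a fall of more than 2-fold. The 4 libraries overlapped, with 79.3 and 55.1 FPKM under FK866 and 86.6 and 66.2 in controls. Values for Sirt2, Sirt3, Sirt4 and Sirt6 were -0.51, -0.56, -0.30 and 0.26. Without late 2-cell control library A, Sirt3 was called lower under FK866, at -1.28.

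When NMN was added to FK866 at the late 2-cell stage, none of the 4 sirtuins tested was called, against 2.86% of 8035 genes. No sirtuin was under an unadjusted p of 0.05. Sirt1 was at 0.09 on the log2 scale (95% interval -1.05 to 1.22, limma adjusted p = 0.936). Sirt3 was not tested, because it was under 1 FPKM in both columns, at 0.973 with FK866 and at 0 reads with FK866-NMN. Sirt2 also went to 0 reads in both libraries, from 0 and 2.42 FPKM, at a log2 fold change of -0.89 with an interval of -2.84 to 1.07. Sirt4 was called lower without library B of FK866-NMN, at -3.92 (limma adjusted p = 0.0304), and stood at 0.69 without library A. The median of all genes was -0.52 in this comparison.

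By the headers, TSA over late 2-cell control gave 1 sirtuin called of 5, against 16.9% of 8091 genes. Sirt4 had 0 reads in both libraries headed late 2-cell TSA, against a control mean of 18.2 FPKM. If 3 reads are allowed in each library, the fold is 97.1, a bound for the counting of reads that leaves out the spread between libraries. With that spread, the log2 fold change of Sirt4 was -4.22 (95% interval -6.99 to -1.46, limma adjusted p = 0.0403). The adjusted p was between 0.115 and 0.173 when any 1 of the 4 libraries was left out, so the call needed all of them. Sirt3 went from 0.744 and 3.74 FPKM to 0 reads in both libraries, at -1.52 with an adjusted p of 0.0777, and was called without late 2-cell control library A, at -2.24. Sirt6 was at 1.97 (limma adjusted p = 0.212), and was called higher without control library B, at 3.77. Sirt1 was at -0.12 (limma adjusted p = 0.877). The same columns are the comparison of 4-cell control with late 2-cell control by the tables, so by the tables the Sirt4 values belong to the step from the late 2-cell to the 4-cell stage.

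By the headers, 4-cell over late 2-cell controls gave no sirtuin called, with 9.46% of 8295 genes called and 2136 genes at an unadjusted p under 0.05. Sirt3 was the member under that unadjusted threshold, at -1.52 (limma adjusted p = 0.0918), since both libraries had 0 reads. It was called without late 2-cell control library A, at -2.24. Sirt4 was at -2.04, with 4.72 and 2.60 FPKM against 22.5 and 13.8 in late 2-cell controls. These libraries did not overlap, as was so for 55.7% of all genes tested. The 95% interval of Sirt4 was -4.83 to 0.75 (limma adjusted p = 0.311). Sirt1 was at -0.07, Sirt2 at -0.19 and Sirt6 at 1.18.

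By the tables, TSA over late 2-cell control was the comparison of the column headed 4-cell FK866, which held 1 library. The spread within that column was therefore not measured, and only control libraries could be left out in turn. In it Sirt1 fell from 76.4 to 7.61 FPKM, 10.0-fold, and was the 1 sirtuin called of 5, against 13.2% of 8810 genes. The log2 fold change was -3.16 (95% interval -4.51 to -1.80, limma adjusted p = 0.00686) and stayed called without either control library (adjusted p 0.0286 and 0.0158). With each library centred on its median gene the log2 fold change was -3.31 and the adjusted p 0.0660. Sirt4 had 0.267 FPKM from 3 reads against 22.5 and 13.8, with a log2 fold change of -3.88 (limma adjusted p = 0.157). Sirt2 was at 1.35, Sirt3 at 0.01 and Sirt6 at 0.32.

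For depletion of Sirt1 itself, no sirtuin was called by either reading, and by the tables the depleted column held 1 library. By the headers, 12.6% of 8205 genes were called, with 2297 at an unadjusted p under 0.05, and Sirt1 was at -0.63 (95% interval -1.77 to 0.52, limma adjusted p = 0.419). Sirt3 was at -1.52 (adjusted p = 0.0880), with 0 reads in both libraries, and was called without late 2-cell control library A, at -2.24. By the tables, 1.04% of 8059 genes were called and 976 were at an unadjusted p under 0.05. Sirt1 was then 11.3 against 76.4 FPKM, at -2.64 (95% interval -4.02 to -1.27, limma adjusted p = 0.0831, with an unadjusted p under 0.05), with 2.38% of genes lower. The adjusted p was 0.102 and 0.0614 without control library A or B. By the tables, Sirt2 was at 1.45, Sirt3 at -0.13, Sirt4 at 0.55 and Sirt6 at 1.00.

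**Figure D2:**
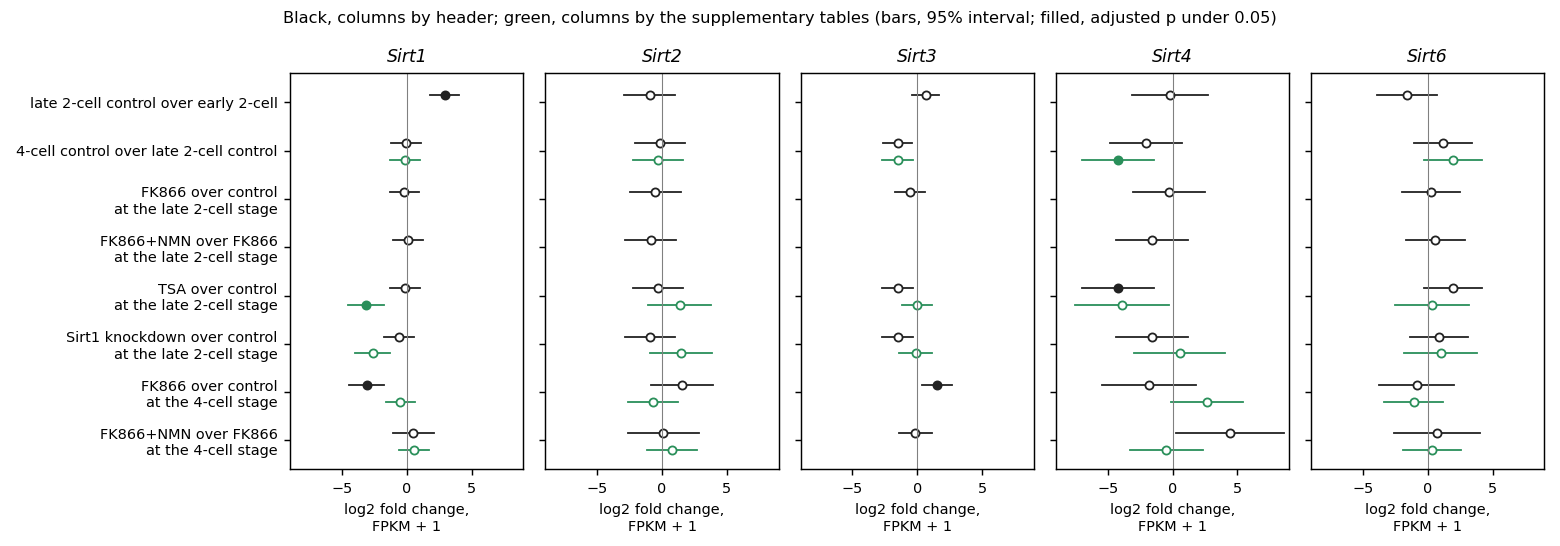
Log2 fold change of FPKM + 1 (x axis) of each sirtuin in the 8 comparisons (y axis), with 95% intervals of limma, black for columns by header and green for columns by the supplementary tables, and filled symbols for adjusted p under 0.05. Sirt3 has no symbol where it was not tested. The Sirt1 rise from early to late 2-cell, 2.91, is the call that does not depend on the reading of the headers that differ.

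At the 4-cell stage, the readings gave different results for Sirt1. The column headed 4-cell FK866 held 1 library, so its own spread was not measured and only control libraries could be left out. By the headers, FK866 over control called 2 of 5 sirtuins, against 30.1% of 8767 genes. Sirt1 was 7.61 against 77.3 and 66.8 FPKM, with a log2 fold change of -3.08 (95% interval -4.44 to -1.73, limma adjusted p = 0.00473), and stayed called without either control library. Sirt3 was 1.89 FPKM from 53 reads against 0 reads in both control libraries, at 1.53 (limma adjusted p = 0.0457), and this call was lost without either control library (0.0903 and 0.0978). It was also lost with each library centred on its median gene, at 0.98, where the median of all genes had been 0.43. By the tables, the FK866 comparison of 4-cell embryos had none of the 4 sirtuins tested called, against 0.159% of 6928 genes (11 genes, 586 at an unadjusted p under 0.05). Sirt1 was then 32.4 and 73.1 against 65.8 and 73.4 FPKM, at -0.50 (95% interval -1.64 to 0.64, limma adjusted p = 0.777). Sirt4 was 17.1 and 1.18 FPKM against 0 reads in both control libraries, at 2.65 (adjusted p = 0.599), and no sirtuin was under an unadjusted p of 0.05.

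With NMN added to FK866 at the 4-cell stage, no sirtuin was called by either reading. By the headers, 12.1% of 8342 genes were called and 2205 were at an unadjusted p under 0.05. Each column had 1 library, and Sirt4 was 26.3 FPKM against 0.267 FPKM, at 4.43 (95% interval 0.24 to 8.62, limma adjusted p = 0.166, with an unadjusted p under 0.05). Sirt1 was 11.3 against 7.61 FPKM, at 0.51. By the tables, 0.0276% of 7247 genes were called (2 genes, 338 at an unadjusted p under 0.05). Sirt1 was then 77.3 and 66.8 against 32.4 and 73.1 FPKM, at 0.55 (95% interval -0.58 to 1.69, adjusted p = 0.996). Sirt3 was at 0 reads in all 4 libraries and was not tested.

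Several of these comparisons share columns. Late 2-cell controls served 5 comparisons by the headers, so their 2 libraries, which differed 216-fold in Sirt6, 7.79-fold in Sirt2 and 5.02-fold in Sirt3, entered each of them. For Sirt1 the same libraries differed 1.31-fold.

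Over the 9 columns, the sirtuins did not follow a common pattern. On the scale of log2(FPKM per library + 1), Pearson's r of Sirt1 was -0.81 with Sirt2, -0.53 with Sirt3, -0.01 with Sirt4 and 0.14 with Sirt6, and that of Sirt2 with Sirt3 was 0.72. These are descriptions over 9 columns that differ in stage, treatment and depth. Among 4792 other genes with a mean of 5 FPKM or more, the genes most like Sirt1 were Frmpd1os (r = 0.96), Calhm6 (0.95) and Dnajb12 (0.94). The genes most like Sirt2 were Mpp6, 0610040J01Rik and Tapt1 (0.89, 0.89 and 0.87). For Sirt3 they were S100a14, Gm32717 and Asb4 (0.96, 0.96 and 0.95), and for Sirt4 they were Virma, Ankrd17 and Gm32996 (0.95, 0.94 and 0.92). For Sirt6 they were Hnrnpd, Dnajc2 and N4bp2l2 (0.89, 0.89 and 0.87).

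**Figure D3:**
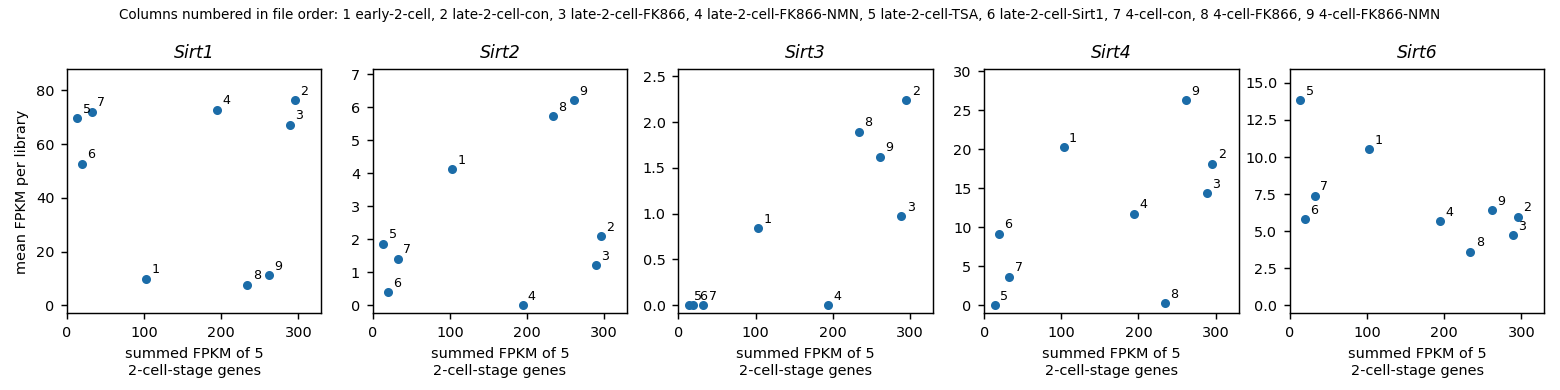
Mean FPKM per library of each sirtuin (y axis) against the summed FPKM per library of the 5 genes of the 2-cell stage (x axis), with a point for each of the 9 columns, numbered in file order. Sirt3 was at 0 in the 3 columns below 33 FPKM of 2-cell genes (5, 6 and 7) and also in column 4, at 194 FPKM, and the columns with low Sirt1 (1, 8 and 9, at 103 to 261 FPKM) overlapped in 2-cell genes with columns 2, 3 and 4 (194 to 296 FPKM), where Sirt1 was high.

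Genes of NAD+ supply were called in 3 comparisons by the headers. Of 15 genes listed, 8 were in the table and up to 5 were tested in a comparison. Nmnat1, the nuclear enzyme that makes NAD+ from NMN, rose together with Sirt1 from early to late 2-cell, from 1.55 to 24.5 FPKM, at a log2 fold change of 3.25 (limma adjusted p = 0.00224). In the same comparison Nadsyn1, the NAD synthetase, fell from 1.57 to 0.0363 FPKM, at -1.29 (adjusted p = 0.0228), and the median of the list was 0.67 against -0.06 for all genes. Nmnat3, the mitochondrial form, was called in both comparisons that use the lone library of the column headed 4-cell FK866 by the headers, at 3.12 FPKM against 0 in 4-cell control (adjusted p = 0.00662) and in 4-cell FK866-NMN (adjusted p = 0.0202). No gene of the list was called under FK866 or FK866-NMN at the late 2-cell stage, nor in any of the 5 comparisons that the tables change. Of all genes, 0.118% and 2.86% were called under FK866 and FK866-NMN, and 0.0276% to 16.9% in those 5. With 3 to 5 genes of the list tested in each, the absence of calls says little about the list. Nmnat1 was 24.5 FPKM in late 2-cell controls, 10.5 with FK866 and 12.2 with FK866-NMN. Its level did not follow that of Sirt1 over all columns. In the 6 columns with high Sirt1 it lay between 6.93 and 24.5 FPKM. Where Sirt1 was low, Nmnat1 was 1.55 FPKM in early 2-cell embryos but 24.9 under the 4-cell FK866 header. It was highest, at 32.7 FPKM, under the 4-cell FK866-NMN header.

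The other enzymes that use NAD+ had 4 of 10 listed genes in the table, of which Parp1 and Tnks were tested. Parp1, the DNA damage polymerase, was 4.80 FPKM in late 2-cell controls and 30.9 FPKM in the column headed late 2-cell Sirt1, and was called higher at 2.43 (adjusted p = 0.0443). Tnks, a tankyrase, was called lower in that comparison, from 11.5 to 0.942 FPKM, at -2.72 (adjusted p = 0.0108). By the tables, the column headed late 2-cell Sirt1 holds 4-cell embryos with FK866. By the headers Parp1 was also called lower in 4-cell FK866, at -4.12 (adjusted p = 0.00575). In the 5 comparisons that the tables change, neither was called, against 0.0276% to 16.9% of all genes. Parp1 was at 21.4 to 30.9 FPKM in the 3 columns with low 2-cell genes and at most at 4.80 FPKM in the other 6. Tnks was at 0.942 to 2.83 FPKM in those 3 columns and at 2.74 FPKM in the column headed 4-cell FK866. In the remaining columns Tnks was at 5.64 to 11.5 FPKM.

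Of the regulators and nuclear substrates of SIRT1, 5 of 16 were in the table and 2 or 3 were tested. E2f1, a transcription factor deacetylated by SIRT1, rose from 41.5 to 141 FPKM between early and late 2-cell, at 1.69 (adjusted p = 0.0308). It was called lower in 4-cell than in late 2-cell controls by both readings, at -1.75 by the headers and -1.60 by the tables (adjusted p = 0.0453 and 0.0442). The latter is the same comparison as TSA over control by the headers. E2f1 was also called higher in the column headed 4-cell FK866 than in 4-cell control, at 2.57 (adjusted p = 0.00946). Foxo1 and Foxo3, forkhead factors that SIRT1 deacetylates, were not separable in every column and were not tested. They had 69.1 and 41.8 FPKM in late 2-cell controls and 2.69 and 6.16 in the column under the late 2-cell TSA header. Low levels were also found in the columns headed late 2-cell Sirt1 (6.69 and 3.94) and 4-cell control (5.73 and 5.30). The column headed 4-cell FK866, which the tables give to TSA, had 30.9 and 36.4 FPKM.

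Of the mitochondrial substrates of sirtuins, 4 of 9 were in the table (Idh2, Acadl, Mlycd and Dlat), and none was called in any comparison by either reading with limma. Where both columns had 2 libraries, 0.0276% to 20.9% of all genes were called. With 3 or 4 genes of the list tested, the absence of calls says little about it. Their median from early to late 2-cell was -2.32 over 3 genes tested, against -0.06 for all genes. Acadl, the long-chain acyl-CoA dehydrogenase that SIRT3 deacetylates, was 20.6 to 22.6 FPKM in the 3 columns with low 2-cell genes, where Sirt3 had 0 reads. It was 0 in late 2-cell FK866-NMN, where Sirt3 also had 0 reads, 13.1 FPKM in the column headed 4-cell FK866, where Sirt3 had 1.89 FPKM, and 3.44 FPKM in late 2-cell controls. Of the zinc-dependent deacetylases, the targets of TSA, 4 of 11 were in the table. Hdac1 rose from 1.75 to 24.6 FPKM between early and late 2-cell, at 3.29 (adjusted p = 0.00146), the direction of Sirt1, and by the headers was called lower in 4-cell FK866, at -1.82 (adjusted p = 0.0445). In the 6 columns with high Sirt1, Hdac1 lay between 22.1 and 27.6 FPKM. Where Sirt1 was low, Hdac1 was 1.75 FPKM in early 2-cell embryos and 7.07 under the 4-cell FK866 header. Under the 4-cell FK866-NMN header it was 23.4 FPKM, so there it did not go with Sirt1. No zinc-dependent deacetylase was called in any comparison by the tables other than that of early with late 2-cell, which both readings share. In the comparisons without a call, 2 or 3 genes of the list were tested and 0.0276% to 16.9% of all genes were called. The absence of calls therefore says little about the list.

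**Figure D4:**
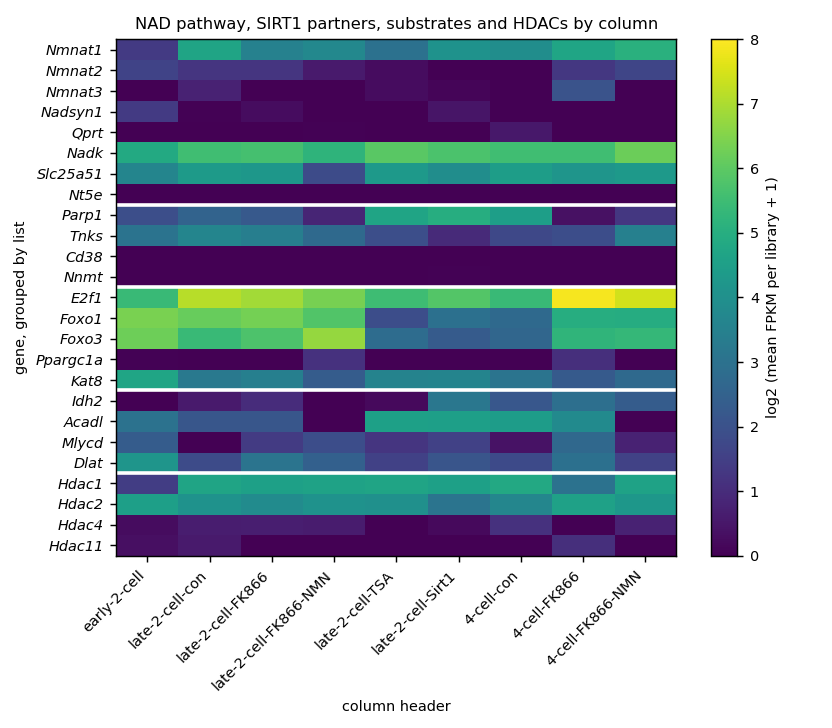
Level of 25 listed genes as log2(mean FPKM per library + 1) (color), in rows grouped from top to bottom as NAD supply, other NAD-consuming enzymes, SIRT1 regulators and nuclear substrates, mitochondrial substrates and zinc-dependent deacetylases, with columns by header. Nmnat1 and Hdac1 were at 1.55 and 1.75 FPKM in early 2-cell and at 24.5 and 24.6 FPKM in late 2-cell controls.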

How the data were processed

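RNA-seq is labelled as 18 samples in 9 groups, with 2 samples per group. The columns held 16 libraries, and these were used, with 1 library in each of 2 columns. Per the methods of the study and the submitters' processing notes, reads were called with CASAVA 1.4, checked with FastQC, trimmed with Trim Galore, aligned to mm10 with HISAT2 and counted with featureCounts. The authors deposited FPKM values, summed over the libraries of a group, so no count test was run. Each value times the exon length (GENCODE M21, GRCm38) was separated into whole reads of the libraries. Of 15747 complete rows, 15737 had a symbol listed once, 15356 of these an exon length, and 14816 were separated in all columns. Between 96.4% and 97.8% of values above 0 were separated in a column. The separation and the test were checked on simulated data.

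limma 3.58.1 in R 4.3.3 was fitted to log2(FPKM + 1), with a mean per column, a shared spread and a variance trend, for genes reaching 1 FPKM per library in 1 or both columns compared. Where nothing says that pools came from separate matings, p-values measure only the spread between these libraries. The members and gene lists were chosen with earlier results of these data known. Named genes were the members, the 3 genes most like each over the columns, and the called genes of the lists. The settings were also changed to a pseudocount of 0.1 or 5, no filter or one at 5 FPKM, median centring, no variance trend, leaving out each library, the column value, the columns by the tables and, chosen after seeing the data, the spread of the 2 compared columns alone. The tables' reading of the columns rests on values and directions for genes other than sirtuins. Separation and figures used Python 3.11.15 with scipy 1.17.1, pandas 2.3.3, matplotlib 3.10.9 and numpy 2.4.6.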

Additional observations from a re-analysis of the deposited data

How the results depend on the processing

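Of 430 recomputed log2 fold changes of sirtuins, 364 kept their direction and, where tested, their side of the threshold. Those from the column value have no p and count as kept when they moved by less than 1 standard error. Of the rest, 13 were newly called, 14 lost their call, 38 changed direction and 1, from the column value, moved by more than its standard error. Of 85 recomputed counts of sirtuins called, 63 stayed within 1.5 times the main count. A kept count need not be the same sirtuin, since for TSA the 1 called was Sirt4 by the headers and Sirt1 by the tables. The rise of Sirt1 from early to late 2-cell was called in all of its 11 tested alternatives. The cause of each change below was not tested. No paired analysis was possible because the columns carry no replicate number.

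With a pseudocount of 0.1 the number of sirtuins called was 1 in place of 0 for 4-cell over late 2-cell control and for Sirt1 depletion, and 2 in place of 1 for TSA. With a pseudocount of 5 or no filter it was 0 for TSA. For FK866 at the 4-cell stage it was 1 in place of 2 with a pseudocount of 5, a minimum of 5 FPKM, no filter, centring on the median or no variance trend. With columns by the tables it was 1 for 4-cell over late 2-cell control and 0 for FK866 at the 4-cell stage.

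Leaving out each library in turn, the number called ranged from 1 to 2 for late over early 2-cell, from 0 to 1 for 4-cell over late 2-cell control, FK866 and FK866+NMN at the late 2-cell stage, TSA and Sirt1 depletion, and was 1 for FK866 at the 4-cell stage. Directions turned in the same way. For late over early 2-cell, Sirt6 ranged from -3.44 to 0.171 and Sirt4 from -0.511 to 0.154. For 4-cell over late 2-cell control, Sirt1 ranged from -0.265 to 0.117, Sirt2 from -1.03 to 0.646 and Sirt6 from -0.622 to 2.99. For FK866 at the late 2-cell stage, Sirt6 ranged from -1.55 to 2.06, Sirt2 from -1.4 to 0.374, Sirt1 from -0.451 to 0.0653 and Sirt4 from -0.634 to 0.0318. For FK866+NMN at the late 2-cell stage, Sirt1 ranged from -0.305 to 0.475, Sirt4 from -3.92 to 0.691 and Sirt6 from -0.499 to 1.69. For TSA, Sirt1 ranged from -0.314 to 0.0681 and Sirt2 from -1.4 to 0.844, and for Sirt1 depletion Sirt6 ranged from -0.936 to 2.68.

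Centring on the median turned Sirt1 and Sirt2 to 0.322 and 0.206 for 4-cell over late 2-cell control and to 0.558 and 0.403 for TSA. It turned Sirt2 to 0.287 for FK866+NMN at the late 2-cell stage and Sirt3 to 0.102 for FK866+NMN at the 4-cell stage. For FK866 at the late 2-cell stage Sirt6 was -0.0358 with a pseudocount of 5 and -0.282 from the column value, and for Sirt1 depletion it was -0.0317 from the column value. With columns by the tables, Sirt2 was 1.35 and Sirt3 0.01 for TSA, Sirt2 1.45 and Sirt4 0.55 for Sirt1 depletion, Sirt2 -0.676 and Sirt4 2.65 for FK866 at the 4-cell stage, and Sirt4 -0.471 for FK866+NMN at the 4-cell stage. None of the values that changed direction was called.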
